A study of Rattus norvegicus with 16 samples.

Results

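The genes followed here are 10 that neurons switch on first after stimulation, measured in rat hippocampus: the AP-1 genes Fos, Fosb, Junb and Atf3, the zinc finger factors Egr1, Egr2 and Klf4, the nuclear receptor Nr4a1, the neuronal factor Npas4, and Arc, which encodes a synaptic protein. Members were found by matching the RefSeq name of each probe target to these symbols. Of the 10 genes, 9 had a matched probe, 1 probe each, out of 13903 symbols with a probe. No probe was matched to Fosb, and the Npas4 probe was well above background on 0 of the 16 arrays. The other 8 genes were well above background on all 16 arrays and are described here.

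RNA came from the hippocampus of male Sprague-Dawley rats, a common outbred laboratory strain, with a body weight of 250 g given in the labels. The 4 groups had 4 arrays each. Control rats were left unstressed, and the depression-susceptible, anxiety-susceptible and insusceptible rats had all gone through 8 weeks of chronic mild stress (CMS), a schedule of mild stressors used to produce depression-like and anxiety-like behaviour in rodents. Age, the test scores that sorted the stressed rats, and the time between the last behavioural test and tissue collection are not given in the sources used here, nor is whether the 4 arrays of a group came from 4 animals.

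Immediate early genes need no new protein synthesis to be transcribed: calcium and kinase signals act on factors, such as CREB and SRF, that already sit at their promoters. FOS and JUN family proteins pair to form AP-1, EGR and NR4A proteins bind their own DNA elements, and ARC goes to active synapses, where it promotes removal of AMPA receptors. Their transcripts are short-lived and are used in the hippocampus as marks of recent neuronal activity, and Atf3 and Klf4 also respond to cell stress and inflammation.

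Levels are log2 processed signals relative to the 75th percentile of the array's signals, which is set to 0. That percentile was a signal of 2997 to 3382 on the arrays scanned on day 1 and 1077 to 1248 on those scanned on day 2. Of the 4 slides, numbers 1 and 2 belonged to day 1 and carried 2 arrays of control RNA and 2 of depression-susceptible RNA apiece. Day 2 covered slide 3, with anxiety-susceptible RNA alone, and slide 4, with insusceptible RNA alone. Arrays that share group and slide mostly varied no more than repeat spots within an array do. Over bins of probe brightness the ratio of the standard deviations was 0.56 to 0.92 for probes with 1 spot and 0.72 to 1.16 for means of 3 spots. These arrays were therefore averaged, which leaves 6 samples, 2 each for control and depression-susceptible rats and 1 each for the other groups. Standard errors (SE) and p-values measure the spread between slides, which may be technical, and the 2 lone samples are assumed to vary like the others. The words rose and fell are kept for genes with a limma adjusted p, over all probes tested, under 0.05 on these 6 samples. Slide and scan day cannot be told apart from group in any comparison that involves the anxiety-susceptible or insusceptible arrays, except that these 2 groups share a day.

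Neuronal, glial and hippocampal markers were present, and the summed levels of these and of markers of other tissues differed between groups. The summed level of the 10 measured choroid plexus markers was 6.76 to 6.98 in control, 4.83 to 5.06 in depression-susceptible, 6.89 to 7.11 in anxiety-susceptible and 3.56 to 3.62 in insusceptible arrays. Of the choroid plexus markers, Kl was well above background on 4 control, 0 depression-susceptible, 1 anxiety-susceptible and 0 insusceptible arrays, and Slc4a5 on 4, 4, 4 and 0. The 8 red blood cell markers summed to 0.46 to 0.51, 4.60 to 4.70, -0.05 to 0.03 and 1.35 to 1.40 in the same order. The 11 measured markers of pyramidal and other neurons summed to 7.52 to 7.81, 7.14 to 7.40, 6.95 to 7.00 and 6.96 to 7.00. The part of these shifts in the results was not tested. In bulk tissue, fewer cells of a type and less RNA per cell cannot be told apart.

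Promoter stretches are shown for the 4 members that hold letter matches to a CRE half-site, the core of the element that CREB binds. RefSeq promoters of GRCr8, from 250 bases before to 50 after the start, were matched for 7 of the 10 members (Fosb, Npas4, Klf4, Nr4a1, Egr1, Junb and Egr2). Searched on both strands, the full CRE, TGACGTCA, was in 0 of the 7 and in 1.83% of 33469 promoters. The CRE half-site TGACG, which is part of the full CRE, was in 4 of the 7 and in 21.2% of all. The CArG box bound by SRF was in Egr1 and Egr2 and in 1.64% of all. An EGR site, GCGNGGGCG, was in Nr4a1 and in 4.98% of all. An AP-1 site, TGANTCA, was in 0 of the 7 and in 7.33% of all. In the stretches below, upstream of the start and read 5′ to 3′ on the gene's strand, capitals mark these matches on either strand. They lie at chr18:26736938-26737027 (plus strand) for Egr1, chr20:21054492-21054541 (minus strand) for Egr2, chr7:134260048-134260097 (plus strand) for Nr4a1 and chr19:40080961-40081010 (plus strand) for Junb.
Egr1: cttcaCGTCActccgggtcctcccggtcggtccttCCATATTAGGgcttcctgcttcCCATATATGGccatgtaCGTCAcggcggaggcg
Egr2: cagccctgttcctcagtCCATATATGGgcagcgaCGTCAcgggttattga
Nr4a1: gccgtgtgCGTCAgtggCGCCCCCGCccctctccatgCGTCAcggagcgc
Junb: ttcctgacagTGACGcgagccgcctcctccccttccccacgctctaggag
The 10-base runs in capitals in Egr1 and Egr2 are CArG boxes, and the 9-base run in Nr4a1 is the EGR site. Egr1 and Egr2 share a CArG box and a CRE half-site within these stretches. A match describes the letters and does not show that a factor was bound.

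Fos encodes the AP-1 partner most used as an activity mark. Its level on the 4 control arrays was -3.72, -3.74, -3.46 and -3.59, and on the depression-susceptible arrays it was -3.15, -3.10, -3.46 and -3.33. The anxiety-susceptible arrays read -2.55, -2.60, -2.58 and -2.55. The insusceptible arrays read -3.95, -3.94, -3.91 and -3.84. Anxiety-susceptible arrays were above and insusceptible arrays below all others, while control and depression-susceptible arrays overlapped at one end.

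Atf3, a stress-induced member of the ATF family that can repress its targets, spanned the widest range of the 8 genes. Control arrays read -2.55, -2.52, -2.46 and -2.47, and depression-susceptible arrays -2.60, -2.39, -2.52 and -2.71. The anxiety-susceptible arrays stood at -0.93, -0.96, -1.03 and -0.78. The insusceptible arrays stood at -3.43, -3.46, -3.50 and -3.32. Control and depression-susceptible arrays overlapped in full, with the anxiety-susceptible arrays above and the insusceptible arrays below both.

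Junb encodes a JUN protein that pairs with FOS and tempers c-JUN activity. It read 2.32, 2.35, 2.25 and 2.25 on control arrays and 2.11, 2.07, 2.09 and 2.20 on depression-susceptible arrays. On anxiety-susceptible arrays it read 2.05, 1.97, 2.03 and 1.96, and on insusceptible arrays 1.60, 1.62, 1.65 and 1.57. The 4 groups stood in this order without overlap on this scale, though the gap between control and depression-susceptible arrays was smaller than the spread within either. After quantile normalization, with either background correction and in the authors' deposited table of log2 values, the control, depression-susceptible and anxiety-susceptible arrays overlapped, with insusceptible arrays below them.

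**Figure D1:**
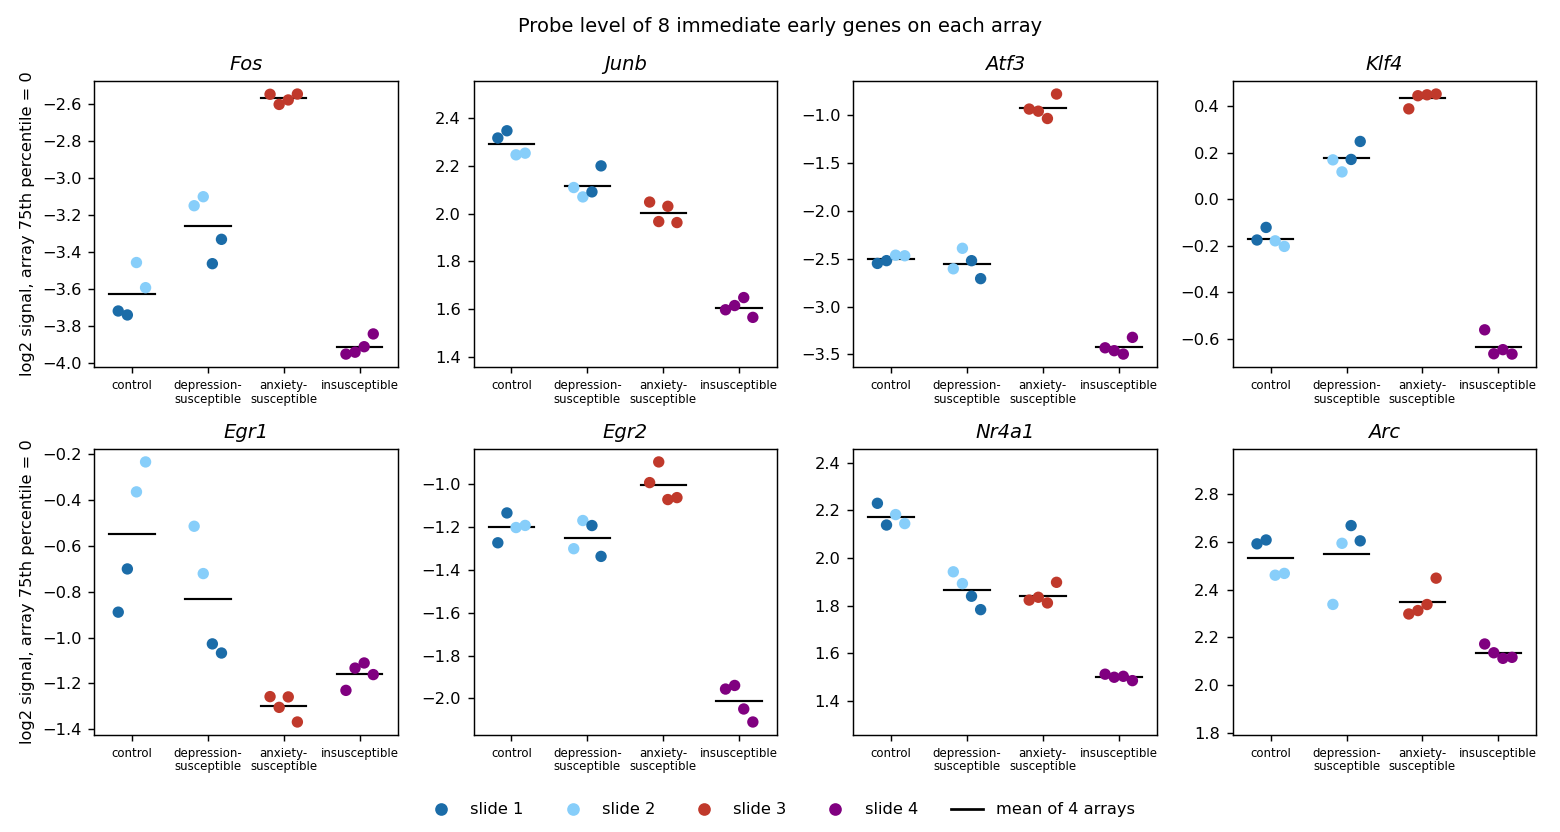
Each point is the log2 processed signal of 1 array (array 75th percentile = 0), for 4 arrays in each of 4 groups, coloured by slide, and the lines are group means of 4 arrays. The insusceptible points lie below all others for 7 of the 8 genes, all but Egr1, and the y axes have different ranges.

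Egr1, a zinc finger factor needed for late phases of hippocampal plasticity, differed most between slides. Control arrays read -0.89, -0.70, -0.37 and -0.23, the lower pair on slide 1 and the higher pair on slide 2. Depression-susceptible arrays read -0.51, -0.72, -1.03 and -1.07, here with the higher pair on slide 2. Slide 2 was thus higher than slide 1 by 0.50 within control and by 0.43 within depression-susceptible. Anxiety-susceptible arrays read -1.26, -1.30, -1.26 and -1.37 and insusceptible arrays -1.23, -1.13, -1.11 and -1.16. Both day 2 groups lay below every control and depression-susceptible array, and Egr1 was the 1 member whose lowest arrays were the anxiety-susceptible ones. The summed markers of pyramidal and other neurons were lowest in these 2 groups (range 6.95 to 7.00). Interneuron markers summed to 6.32 to 6.39 in anxiety-susceptible and 6.19 to 6.33 in depression-susceptible arrays. The part of either sum in the Egr1 levels was not tested.

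Egr2, a relative of Egr1 also known for its part in Schwann cell myelination, had another order. It read -1.27, -1.13, -1.20 and -1.19 on control arrays and -1.30, -1.17, -1.19 and -1.34 on depression-susceptible arrays, which overlapped. It read -0.99, -0.90, -1.07 and -1.06 on anxiety-susceptible arrays and -1.96, -1.94, -2.05 and -2.11 on insusceptible arrays. The anxiety-susceptible arrays were just above control and the insusceptible arrays were well below all others.

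Klf4, a Krüppel-like factor active in endothelium, glia and stressed cells, separated all 4 groups. Control arrays read -0.18, -0.12, -0.18 and -0.20, and depression-susceptible arrays 0.17, 0.12, 0.17 and 0.25. Anxiety-susceptible arrays read 0.39, 0.44, 0.45 and 0.45. Insusceptible arrays read -0.56, -0.66, -0.65 and -0.67. The order was insusceptible, control, depression-susceptible, anxiety-susceptible, with no overlap between neighbours. The same order, again without overlap, was found after quantile normalization, with either background correction and in the deposited table. The summed level of 7 measured endothelial markers was 3.66 to 3.73 in insusceptible, 3.74 to 3.85 in control, 3.84 to 3.88 in depression-susceptible and 3.41 to 3.45 in anxiety-susceptible arrays, and its part in the Klf4 levels was not tested.

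Nr4a1, an orphan nuclear receptor that limits spine density in active neurons, was highest in control. It read 2.23, 2.14, 2.18 and 2.14 there and 1.94, 1.89, 1.84 and 1.78 on depression-susceptible arrays. Anxiety-susceptible arrays read 1.82, 1.83, 1.81 and 1.90 and insusceptible arrays 1.51, 1.50, 1.50 and 1.48. The depression-susceptible and anxiety-susceptible arrays overlapped, with control above and insusceptible below both.

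Arc was the member that varied least between groups. It read 2.59, 2.61, 2.46 and 2.47 on control arrays and 2.34, 2.59, 2.67 and 2.60 on depression-susceptible arrays, which overlapped. It read 2.30, 2.31, 2.34 and 2.45 on anxiety-susceptible arrays and 2.17, 2.13, 2.11 and 2.12 on insusceptible arrays. Insusceptible arrays were below all others, and depression-susceptible and anxiety-susceptible arrays overlapped.

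Across the set, insusceptible arrays were below all 12 other arrays for 7 of 8 genes, a pattern shown by 6.76% of all probes. The count was also 7 after quantile normalization and in the authors' deposited table of log2 values. It was 5 with plain background subtraction and 3 with normexp background correction. The normexp counts here keep 2 arrays, control replicate 3 and insusceptible replicate 2, on which the background fit failed (fitted mean background -1800 and -662). On the latter Egr2 read -0.85, against -1.97 to -1.78 on the other insusceptible arrays. The normexp counts therefore do not show whether the patterns depend on this correction. Anxiety-susceptible arrays were above all others for 4 genes (Fos, Atf3, Klf4 and Egr2), against 8.03% of probes. That count was 3 after quantile normalization, without Egr2, and 2 with normexp, Atf3 and Klf4. Control arrays were above all others for 2 genes (Junb and Nr4a1), against 17.6% of probes. It was 1, Nr4a1, after quantile normalization, with plain subtraction and in the deposited table, and 0 with normexp. Depression-susceptible arrays were above or below all others for 0 of the 8, against 3.6% and 3.17% of probes. Egr1 was below all others in anxiety-susceptible arrays, as were 11.6% of probes. These shares count arrays, which are not independent samples.

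The comparison of depression-susceptible with control rats asks how the set stands after CMS in rats with the depression-like outcome, and it is the comparison that shares slides. Each of the 8 genes kept its sign on both slides, with Klf4, Fos and Arc higher and Nr4a1, Egr1, Junb, Atf3 and Egr2 lower in depression-susceptible arrays, but 0 of the 8 passed limma's adjusted test on the 6 samples, against 9.79% of probes called. At an unadjusted p under 0.05, 2 genes passed, Klf4 and Nr4a1 (30.5% of probes), and 4 passed with 16 arrays counted as samples, Klf4, Fos, Nr4a1 and Junb (50.9% of probes). Klf4 differed by 0.35 (SE 0.08, adjusted p = 0.0734), by 0.36 within slide 1 and 0.33 within slide 2. Fos differed by 0.37 (SE 0.14, adjusted p = 0.183), by 0.33 and 0.40 within the slides. Nr4a1 differed by -0.31 (SE 0.08, adjusted p = 0.0985), by -0.37 and -0.25 within the slides. Egr1 differed by -0.29 (SE 0.24, adjusted p = 0.485), by -0.25 and -0.32 within the slides. Junb differed by -0.17, Atf3 by -0.06, Egr2 by -0.05 and Arc by 0.02, with adjusted p of 0.233, 0.697, 0.679 and 0.922.

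With slide as a block on the same 6 samples, 4 genes passed limma's test, as did 37.7% of probes. The block takes up a degree of freedom, so this fit leaves fewer residual degrees of freedom than the fit without it. The blocked adjusted p was 0.0224 for Klf4, 0.0226 for Fos, 0.0330 for Egr1 and 0.0369 for Nr4a1. Over all alternatives run, the adjusted p ranged from 2.71e-07 to 0.759 for Klf4, 2.38e-06 to 0.833 for Fos, 0.000432 to 0.930 for Egr1 and 1.7e-06 to 0.775 for Nr4a1. On both slides the control arrays took positions 1 and 2 and the depression-susceptible arrays other positions, so position and group cannot be told apart. All 10 measured choroid plexus markers were called lower in this comparison on the 6 samples without a block. Of the 8 red blood cell markers 6 were called higher and 1 lower. The part of either in the differences was not tested.

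**Figure D2:**
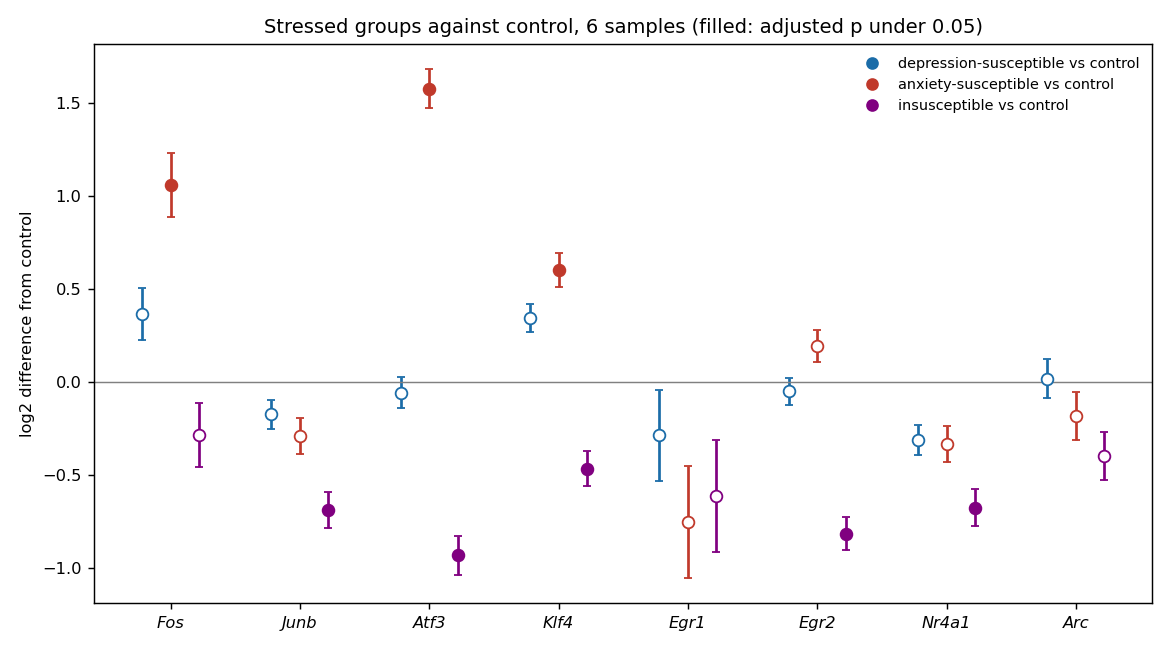
The y axis is the log2 difference of each stressed group from control for 8 genes, with bars of 1 SE from limma on 6 samples, and filled points have an adjusted p under 0.05. Filled points are Atf3, Fos and Klf4 above 0 in anxiety-susceptible rats and Atf3, Egr2, Junb, Nr4a1 and Klf4 below 0 in insusceptible rats.

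The set did not move one way in anxiety-susceptible rats. Atf3, Fos and Klf4 rose against control, while the other 5 genes did not pass the test and 4 of those 5 had lower levels than control. Atf3 was 2.98-fold higher (log2 difference 1.57, SE 0.10, adjusted p = 0.00744). Fos was 2.08-fold higher (1.06, SE 0.17, adjusted p = 0.0248) and Klf4 1.52-fold higher (0.60, SE 0.09, adjusted p = 0.0230). The 3 rises stand against 30.1% of probes called in either direction and 13.6% called higher. Egr1 differed by -0.75 (SE 0.30, adjusted p = 0.132), Nr4a1 by -0.33 (adjusted p = 0.0742), Junb by -0.29 (adjusted p = 0.0938), Arc by -0.18 (adjusted p = 0.328) and Egr2 by 0.19 (adjusted p = 0.165). The members' median difference was 0.01, beside -0.05 for all probes.

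Leaving out the control mean of slide 1 or of slide 2 left 1 of the 3 rises, Atf3, with an adjusted p under 0.05, and Klf4 also missed it without either depression-susceptible slide mean. In fits that left out an array or slide mean, the values of the 3 genes moved little. They were 1.52 to 1.61 for Atf3, 0.95 to 1.16 for Fos and 0.58 to 0.62 for Klf4. Over all alternatives they ranged more widely, from 1.17 to 1.61, 0.55 to 1.16 and 0.32 to 0.63. These alternatives include normexp correction with the background fit failed on 2 arrays. The scale also mattered for the genes that did not pass: Arc was 0.09 above control after quantile normalization, and Junb was -0.08 from it. Median scaling, which shifted all probes by -0.28 here, ended the Klf4 call (0.32, adjusted p = 0.116, range over alternatives 1.71e-09 to 0.940) and gave Egr1, Nr4a1 and Junb lower calls. On that scale 42.4% of all probes were called, and 81.6% of the called probes were lower. Of the choroid plexus markers, 9 of 10 were lower here (median -2.23), while their summed level was 6.89 to 7.11, beside 6.76 to 6.98 in control. Of 12 integrated stress response genes 6 fell (given with the gene lists). The part of either in the differences was not tested.

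Insusceptible rats had lower levels of all 8 genes than control, and 5 of them fell by the test. Atf3 fell to 0.526 of the control level (log2 difference -0.93, SE 0.10, adjusted p = 0.0149) and Egr2 to 0.569 (-0.81, SE 0.09, adjusted p = 0.0139). Junb fell to 0.622 (-0.69, SE 0.10, adjusted p = 0.0199), Nr4a1 to 0.627 (-0.67, SE 0.10, adjusted p = 0.0210) and Klf4 to 0.725 (-0.46, SE 0.09, adjusted p = 0.0352). Among all probes 30.2% were called in either direction and 14.2% lower. Egr1 differed by -0.61 (SE 0.30, adjusted p = 0.189), Arc by -0.40 (SE 0.13, adjusted p = 0.0869) and Fos by -0.28 (SE 0.17, adjusted p = 0.264). The 4 insusceptible arrays lay below all 4 control arrays for each of the 8 genes, as they did for 35.1% of probes, and 69.0% of probes had no overlap in one direction or the other. The members' median was -0.64, beside 0.01 for all probes.

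The direction held on every scale for the 5 genes that fell, and not for Fos. Fos was -0.64 from control after quantile normalization, where it passed, and 0.24 above control under normexp correction without 2 arrays whose background fit had failed. Arc was -0.14 from control after quantile normalization. Without the control mean of slide 1 or of slide 2, 0 of the 8 genes had an adjusted p under 0.05, and without either depression-susceptible mean 2 did, Atf3 and Egr2. The 5 differences themselves stayed between -0.96 and -0.44. Choroid plexus markers were lowest in these arrays (10 of 10 lower than control, median -4.44), and their part was not tested.

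**Figure D3:**
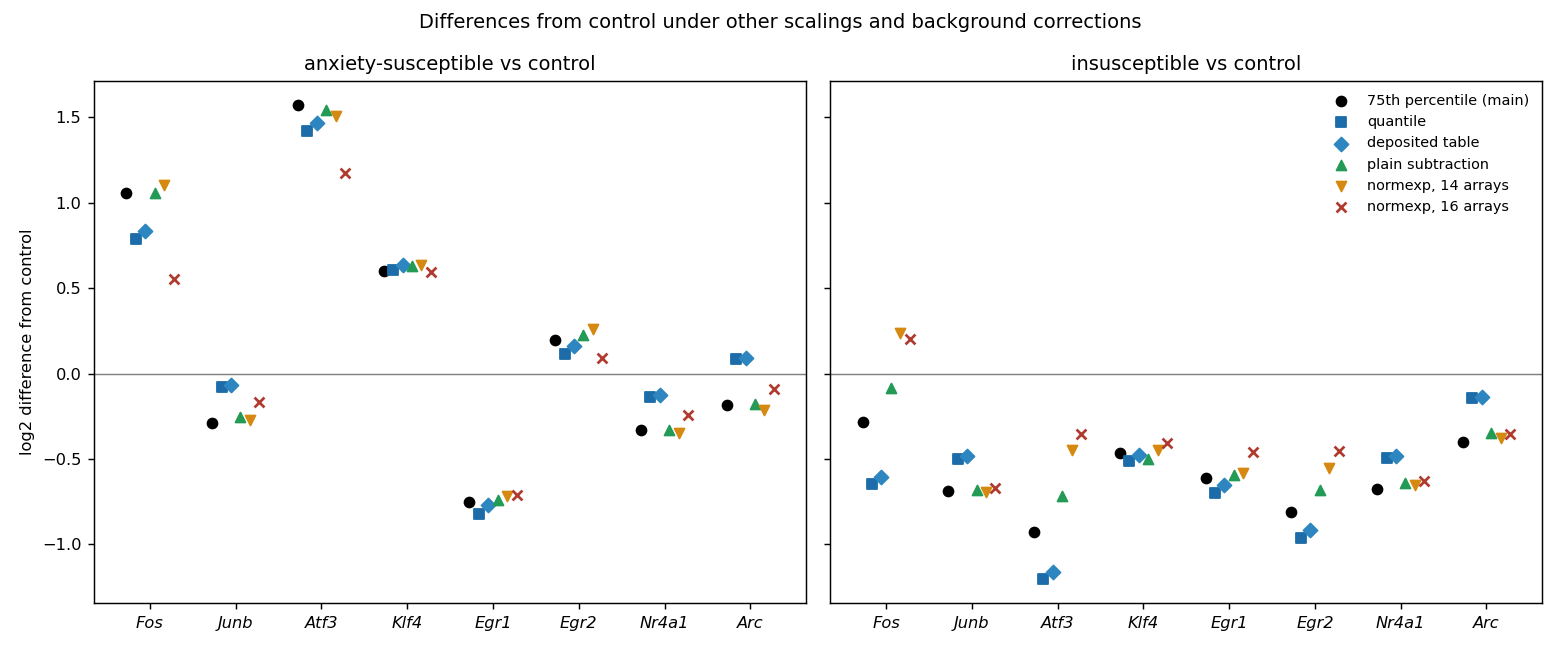
The y axis is the log2 difference from control of each gene, in anxiety-susceptible (left) and insusceptible (right) rats, under 6 ways of scaling or background correction marked by symbol. Atf3, Fos and Klf4 stay above 0 on the left, and on the right all genes but Fos stay below 0.

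Between stressed groups, Atf3 was the gene that passed. It was lower in depression-susceptible than in anxiety-susceptible rats by 1.63 in log2 (-1.63, SE 0.10, adjusted p = 0.0470), where 0.23% of probes were called. It was 2.50 higher in anxiety-susceptible than in insusceptible rats (SE 0.12, adjusted p = 0.0453), where 0.0783% were called. In that comparison Fos differed by 1.34 (SE 0.20, adjusted p = 0.178), Klf4 by 1.07 (SE 0.11, adjusted p = 0.112) and Egr2 by 1.01 (SE 0.10, adjusted p = 0.112). The anxiety-susceptible arrays were all above the insusceptible ones for 7 of the 8 genes, as for 21.4% of probes, and all below for 1, Egr1, as for 30.7%. Depression-susceptible arrays were above insusceptible arrays for all 8 genes, a state shared by 28.4% of probes, with differences of 0.33 for Egr1 to 0.87 for Atf3. None of these 8 passed limma's adjusted test (0 of 8, against 0.084% of probes called), while 7 had an unadjusted p under 0.05 (30.4% of probes) and 8 passed with 16 arrays as samples (61.9% of probes).

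The 2 Atf3 calls sat near the threshold. The difference from depression-susceptible rats had an adjusted p of 0.05 or more without control replicate 2, 3 or 4, without depression-susceptible replicate 1, 2 or 3, or without anxiety-susceptible replicate 4. The difference from insusceptible rats did so without control replicate 1, 2 or 3 or depression-susceptible replicate 1 or 3. Leaving out any one of the 4 control and depression-susceptible slide means ended both calls. The size of the difference ranged from -1.69 to -1.46 and from 1.53 to 2.63 over all alternatives. The comparisons with control share the control arrays, and the others share the stressed arrays, so they are not independent of each other.

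The related gene lists that follow are counted against the shares of all probes called in each comparison with control. These were 6.68% higher and 3.11% lower in depression-susceptible, 13.6% higher and 16.6% lower in anxiety-susceptible, and 16% higher and 14.2% lower in insusceptible rats. Of 10 other AP-1 genes, 4 were measured past the filter, and Jun, the main FOS partner, fell in insusceptible rats by -0.52 (SE 0.11, adjusted p = 0.0385), though by only -0.10 after quantile normalization. Jun differed by -0.14 in depression-susceptible and -0.44 in anxiety-susceptible rats (adjusted p = 0.364 and 0.0541). Mafk, a small MAF protein, fell by -0.38 in anxiety-susceptible rats (adjusted p = 0.0487). In depression-susceptible rats 0 of the 4 passed limma's test (1 at an unadjusted p under 0.05, 2 with 16 arrays). No probe was matched to Fosl2 or Homer1. Egr4 fell in insusceptible rats by -0.75 (SE 0.11, adjusted p = 0.0221), near Egr2, and differed by -0.14 and -0.41 in depression-susceptible and anxiety-susceptible rats (adjusted p = 0.377 and 0.0643). Egr3 was well above background on 2 of 4 control, 4 of 4 depression-susceptible and 0 of the 8 other arrays, and 0 of its differences passed.

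Nr4a2, a relative of Nr4a1, went its own way. It rose in depression-susceptible rats by 0.45 (SE 0.07, adjusted p = 0.0444) and fell in anxiety-susceptible rats by -0.48 (SE 0.09, adjusted p = 0.0319), with -0.18 in insusceptible rats (adjusted p = 0.198). Nr4a3 differed by 0.08, -0.17 and 0.04 in the 3 groups (adjusted p = 0.529, 0.255 and 0.780).

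**Figure D4:**
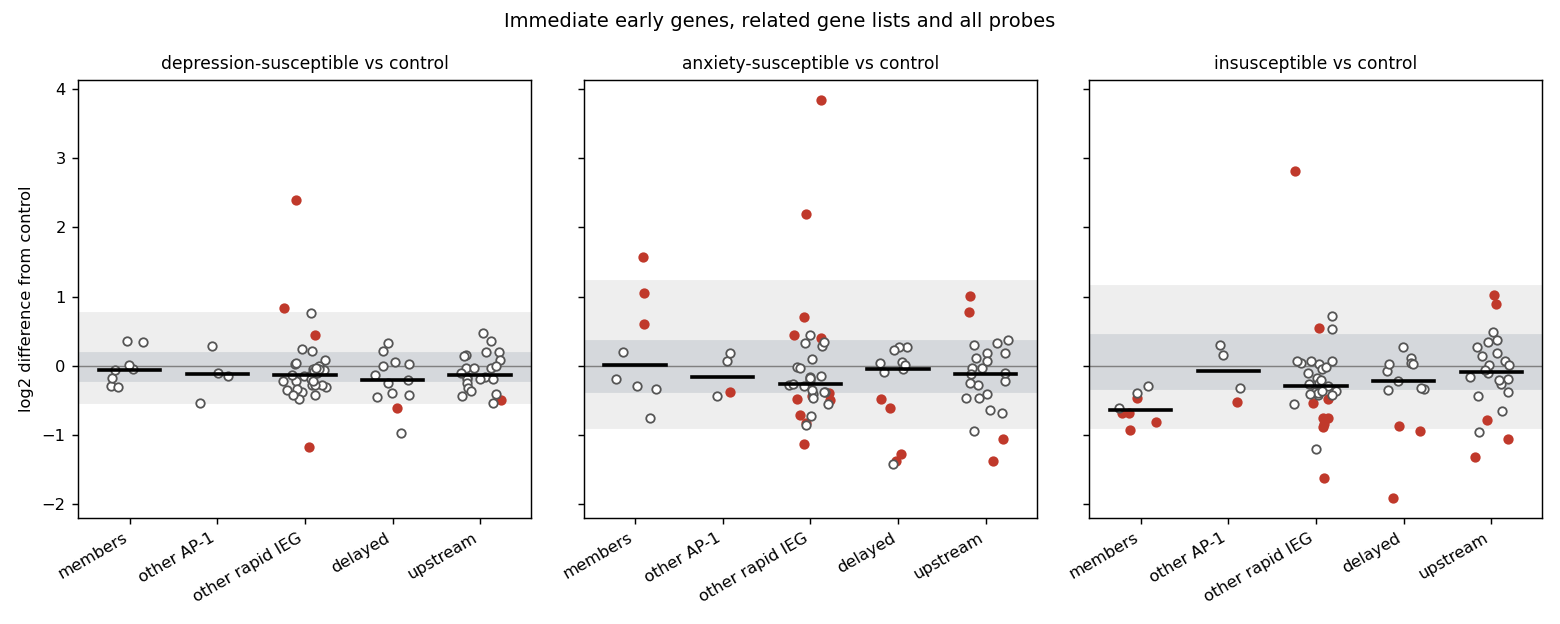
The y axis is the log2 difference from control for the 8 members and 4 related gene lists, 1 point per gene and red where the adjusted p is under 0.05, with black lines at list medians. The dark band spans the lower to upper quartile of all probes and the light band their outer percentiles (5 and 95), and the members' median of -0.64 in insusceptible rats lies below the dark band.

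Of 41 other rapid immediate early genes, 34 passed the filter. In depression-susceptible rats 3 rose and 1 fell, in anxiety-susceptible rats 5 rose and 7 fell, and in insusceptible rats 2 rose and 7 fell (all probes: 6.68% and 3.11%, 13.6% and 16.6%, 16% and 14.2%). The medians were -0.14, -0.26 and -0.30, beside -0.04, -0.05 and 0.01 for all probes. Sik1, a CREB-induced kinase that restrains CREB coactivators, had a probe well above background on 1 of 4 control arrays and on all 12 others. Its control level was thus near background, and the size of its differences is uncertain. It was 5.26-fold, 14.4-fold and 7.00-fold higher in the 3 groups (limma adjusted p = 0.00459, 0.00633 and 0.00603). Setting control arrays no lower than their dimmest probe well above background did not change these folds. Ccn1, a matrix protein induced by SRF and YAP, rose by 0.83 in depression-susceptible and 2.20 in anxiety-susceptible rats (adjusted p = 0.0262 and 0.00661) and differed by -0.42 in insusceptible rats (adjusted p = 0.0805). The order of its group means matched that of Fos and Klf4. Dusp6, an ERK phosphatase, fell by -1.17, -0.82 and -0.88 (adjusted p = 0.0238, 0.0396 and 0.0352). Ptgs2, which encodes cyclooxygenase-2, fell by -1.12 in anxiety-susceptible and -0.75 in insusceptible rats (adjusted p = 0.0134 and 0.0234). Zfp36, an mRNA decay factor, fell by -1.62 in insusceptible rats (adjusted p = 0.0215), with the spots of 2 control arrays left out as outliers.

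Of 17 delayed activity-regulated genes, 13 passed the filter and 0 rose against control by limma's test in any stressed group (all probes: 6.68%, 13.6% and 16% higher). The falls, 1, 4 and 3 of 13, stand beside 3.11%, 16.6% and 14.2% of all probes. In depression-susceptible rats 1 fell, the cell cycle inhibitor Cdkn1a by -0.60 (adjusted p = 0.0283). In anxiety-susceptible rats 4 fell, with Rasgrp1, a Ras activator, at -1.37, the growth factor gene Bdnf at -1.28 (SE 0.18) and Nptx2, a synaptic pentraxin, at -0.61 (adjusted p = 0.0102, 0.0204 and 0.0228). In insusceptible rats 3 fell: the receptor gene Gpr3 by -1.90, Bdnf by -0.94 and Rasgrp1 by -0.87 (adjusted p = 0.0452, 0.0330 and 0.0181). Bdnf differed by -0.41 in depression-susceptible rats (adjusted p = 0.164). In anxiety-susceptible rats Bdnf fell while Fos rose. The list medians were -0.21, -0.05 and -0.21 in the 3 groups, and 0.05 in insusceptible rats after quantile normalization.

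All 24 measured genes of 33 upstream kinases and transcription factors passed the filter. Depression-susceptible rats had 1 fall, anxiety-susceptible rats 2 rises and 2 falls, and insusceptible rats 2 rises and 3 falls. Mapk3, a mitogen-activated protein kinase gene, fell by -1.06 in anxiety-susceptible and -1.32 in insusceptible rats (adjusted p = 0.0436 and 0.0294). The CREB coactivator gene Crtc2 rose by 1.02 in both (adjusted p = 0.0130 and 0.0134).

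Among 8 measured partners of ARC, EGR and NR4A proteins, 0 passed in depression-susceptible rats (limma; 1 at an unadjusted p under 0.05, 4 with 16 arrays). Sh3gl3, an endophilin gene, fell by -0.46 in anxiety-susceptible rats (adjusted p = 0.0396). In insusceptible rats 3 fell. Nab2, a corepressor of EGR proteins, also passed as higher (adjusted p = 0.0353), but its probe was well above background on only 1 of 4 insusceptible arrays. Its insusceptible mean of -6.01 lay within the range of the dimmest probes well above background on those arrays (-6.03 to -5.38). It is therefore not counted as a rise. The kinase gene Camk2b fell by -0.78 and Arnt2, an NPAS4 partner, by -0.72 (adjusted p = 0.0435 and 0.0366).

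Atf3 is also a target of the integrated stress response, whose central factor is ATF4, so the 12 measured genes of that pathway were set beside it. Where Atf3 rose, in anxiety-susceptible rats, 6 of the 12 fell and 0 rose by limma's test (all probes: 16.6% lower and 13.6% higher). Of these Atf4 by -0.95 (SE 0.12, adjusted p = 0.0178), Asns, which makes asparagine, by -0.86 (adjusted p = 0.0248) and Cebpg by -0.84 (adjusted p = 0.0193) fell most. Where Atf3 fell, in insusceptible rats, 3 fell and 1 rose (all probes: 14.2% and 16%): Atf4 by -0.97 (adjusted p = 0.0174), the phosphatase subunit gene Ppp1r15a by -0.61 (adjusted p = 0.0207), and Sesn2, a stress-induced sestrin, higher by 0.75 (adjusted p = 0.0495). In depression-susceptible rats 0 of 12 passed limma's test (2 at an unadjusted p under 0.05, 6 with 16 arrays). The Asns spots of 1 control and 3 depression-susceptible arrays were left out as outliers.

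The other 11 measured Krüppel-like factors mostly did not pass. In anxiety-susceptible rats, where Klf4 rose, 0 of the 11 rose by limma's test and 1 fell (all probes: 13.6% and 16.6%), the glucocorticoid-responsive Klf9 by -1.02 (SE 0.13, adjusted p = 0.0165, 1 control array left out as an outlier). In depression-susceptible and insusceptible rats 0 of 11 passed limma's test, with 1 and 3 at an unadjusted p under 0.05 and 7 and 7 with 16 arrays. The list medians were -0.18, -0.19 and -0.27, where Klf4 differed by 0.35, 0.60 and -0.46. In the comparisons between stressed groups, 0 of the 99 genes of all 7 related lists passed limma's test, beside 0.23%, 0.084% and 0.0783% of probes (depression-susceptible against anxiety-susceptible, against insusceptible, and anxiety-susceptible against insusceptible). In the same order 30, 29 and 14 of the 99 had an unadjusted p under 0.05 (31.4%, 30.4% and 11% of probes), and 69, 60 and 43 passed with 16 arrays (62.0%, 61.9% and 37.1% of probes).

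For members whose 6 samples spanned more than 1 in log2, the 3 genes of 11213 with the nearest centred profile were taken. Fos (span 1.34) was nearest to Cplx3, Ly6g6e and Dnah1, at root mean square differences of 0.13, 0.14 and 0.15. For Atf3 (span 2.50), Calcr, Ccn1 and Fos came nearest, at 0.36, 0.38 and 0.39. The differences are not scaled by span, so those of Atf3 cannot be set against those of the other members. The 3 genes nearest to Egr2 (span 1.01) included Ift27 and Ttc29, both at 0.07. Klf4 (span 1.07) was nearest to Oas1e, Tnf and Ccl2, at 0.06, 0.08 and 0.09. Of these genes Dnah1, Ccn1, Fos and Ift27 were well above background on all 16 arrays. The others were so on only 0 to 2 of the 4 insusceptible arrays (Oas1e and Ly6g6e on 0, Calcr on 1, Cplx3, Ttc29, Tnf and Ccl2 on 2). Oas1e was also so on only 3 of 4 control and 1 of 4 anxiety-susceptible arrays. The likeness to the others, including all 3 matches of Klf4, thus rests in part on values at background.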

How the data were processed

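RNA of 16 hippocampal samples was measured on 1-colour Agilent arrays. Per the labels, rRNA was depleted before random-primed amplification. The deposited intensity of each spot comes, per the file headers, from Feature Extraction 11.0.1.1, which subtracted background and removed spatial trends. The authors' deposited table of log2 values was used as an alternative; the steps behind it are not given in the sources used here.

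Control spots and outlier spots were left out. Spots of a probe were averaged, log2 processed signals were lowered by each array's 75th percentile, and 17885 of 24684 probes, well above background on at least 4 arrays, were tested. No spot was saturated (0 spots). Symbols came from a RefSeq name table of GRCr8 (14274 of 15323 messenger RNA probes matched), used for names only; the brightest probe stood for a gene. The number of arrays limits the precision. Arrays were tied to slides by scan time in the headers.

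limma 3.58.1 (R 4.3.3; two-sided moderated tests, Benjamini-Hochberg adjustment, threshold 0.05) was fitted to 6 slide means with 2 residual degrees of freedom, for 6 comparisons of 4 groups, and tested on simulated data. Python 3.11.15, pandas 2.3.3, numpy 2.4.6 and matplotlib 3.10.9 were used. Alternatives were other scalings, background corrections, filters, probe rules, 16 arrays as samples, blocks, and leaving out arrays or slide means. The normexp correction used an offset of 50 and the median signal in place of the planned mean signal, which the scanner output does not hold. The members and lists were chosen with earlier results of these data known. The genes named are the members, the 3 largest called changes of each list in each comparison (all, where 3 or fewer were called), Jun, Egr3, Egr4, Nr4a2, Nr4a3, Fosl2, Homer1 and Bdnf; 2 genes that these rules would name are not reported here.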

Additional observations from a re-analysis of the deposited data

Results flagged for a closer look

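One value of a member stood apart from its group. Klf4 in anxiety-susceptible replicate 1 was 0.3878, while the other 3 arrays read 0.44, 0.45 and 0.45; the gap divided by the range was 0.886, above Dixon's critical value at a confidence of 95%. Of 32 sets of 4 arrays tested (8 genes in 4 groups) this was the 1 that passed, and chance passes about 5%. The whole group spans less than the distance to any other group.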

How the results depend on the processing

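Member counts are given as called genes of 8 in the order depression-susceptible, anxiety-susceptible and insusceptible against control, then depression-susceptible against anxiety-susceptible, depression-susceptible against insusceptible, and anxiety-susceptible against insusceptible, where the 6-sample counts were 0, 3, 5, 1, 0 and 1. With 16 arrays as samples they were 4, 8, 8, 7, 8 and 7, with the replicate block added 4, 8, 8, 7, 7 and 7, and with slide as a random block 5, 6, 8, 4, 7 and 6. Slide as a fixed block gave 4 (6 means, 37.7% of probes) and 5 (16 arrays, 60.2% of probes) for the first. Arrays of scan day 2 alone gave 8 for the last, where 54.6% of probes were called. That fit counted each array as a sample, though each group lay on 1 slide, so slide and group cannot be told apart in it. Median scaling moved the median of all probes by -0.28 and -0.33 in anxiety-susceptible and insusceptible rats against control. It gave 5 (2 higher, 3 lower) and 8, where 42.4% and 42.9% of probes were called. Of the called probes 81.6% and 80.8% were lower, against 55.0% and 47.1% on the main scale. Depression-susceptible against insusceptible gave 4 with quantile normalization (4.66% of probes), 3 with plain subtraction (7.54%) and 2 with the deposited table (2.25%). It gave 4 with normexp on 14 arrays (38.2%) and 3 without the filter (13.5%). Normexp on 14 arrays gave 2 for depression-susceptible against anxiety-susceptible (38.3% of probes). Without the filter, anxiety-susceptible against control gave 1 (7.99% of probes), and both Atf3 comparisons between stressed groups gave 0 (0.0203% and 0.0%). Normexp on 16 arrays gave 0 in all 6, where 0.0% of probes were called, with the fit failed on 2 arrays (fitted mean background -1800 and -662). Leaving out 1 array or slide mean gave 0 to 0, 1 to 3, 0 to 5, 0 to 1, 0 to 0 and 0 to 1.

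Signs that turned: Arc against control to 0.09 in anxiety-susceptible rats (0.0865 quantile, 0.0930 deposited table) and to -0.0984 in depression-susceptible rats (median scaling), Nr4a1 between depression-susceptible and anxiety-susceptible to -0.0771 (quantile) and -0.0835 (deposited table), and Egr2 in anxiety-susceptible rats to -0.0903 (median scaling). Under normexp on 16 arrays Fos turned to -0.310 (depression-susceptible) and 0.202 (insusceptible) against control and to -0.511 between them, and Atf3 between these 2 to -0.0036; on 14 arrays Fos turned to 0.2405 in insusceptible rats. Leaving out arrays or slide means turned Arc in depression-susceptible rats (-0.0661 to 0.1044), Atf3 there (-0.114 to 0.0021) and Nr4a1 between depression-susceptible and anxiety-susceptible rats (-0.0306 to 0.0754). None of these differences passed before or after, and the cause was not tested.

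Calls over all probes were 1748, 5384, 5400, 41, 15 and 14. With 16 arrays they were 9086, 12762, 13055, 11062, 11056 and 6641, and without the filter 820 and 1970 for the first 2 and 5, 3320 and 0 for the last 3. Quantile normalization gave 1812, 832 and 60 for the last 3. Leaving out a slide mean left 399 to 552, 811 to 2238, 1131 to 2456, 0, 0 and 0. Replicate numbers did not pair the samples: same-numbered arrays' deviations correlated at -0.55 to 0.13, 1 of 24 pairs over 0.1. The replicate block therefore stands here only as a count. Signal over background limits Npas4 and Egr3.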
